A study of Schizosaccharomyces pombe with 24 samples.

Results

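Long terminal repeats (LTRs) and Tf2 retrotransposons of the fission yeast Schizosaccharomyces pombe are described here from the genome annotation that accompanied a ChIP-seq series on heterochromatin. The members were chosen by feature type and name: every row of the long terminal repeat type on chromosomes I, II and III, and every gene named Tf2 followed by a number. This gave 238 LTRs and 13 Tf2 genes, 251 of the 58359 rows of the annotation. The series has 24 libraries of H3K9me2 or H3K9me3, the histone marks of heterochromatin. All strains, WT included, carry ade6+ next to 10 tet operators (10xteto-ade6+). This insert stands at ura4D in 14 libraries, called ectopic, of WT, clr4D, swi6D, swi6D mst2D, swi6D set1D, swi6D mst2D set1D and mst2D set1D cells. It stands at cenHD in the other 10, called endogenous, of WT, swi6D, swi6D mst2D, swi6D set1D and swi6D mst2D set1D cells. Here D marks a deletion: swi6 encodes an HP1 protein, clr4 the H3K9 methyltransferase, mst2 a histone acetyltransferase and set1 the H3K4 methyltransferase. Every combination of site, genotype and mark had 1 library, made from cells in log phase.

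The 2 annotations analysed here hold coordinates and no value per library, so no histone mark level over a repeat is given, and nothing is compared between genotypes. The main annotation, called endogenous-site, has the tet array on chromosome II. No label ties an annotation to a strain, and repeats gained or lost in a strain would not show. All values below are descriptions of this genome, with no replicates and no test. Intervals are 95% Wilson intervals, which cover counting error only.

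An LTR retrotransposon copies itself through RNA and carries the same LTR at both ends, with the genes for its Gag and Pol proteins between them. Recombination between the 2 LTRs removes the inner part and leaves a solo LTR behind, so solo LTRs mark places where an element once stood. In fission yeast the Tf1 and Tf2 families insert mainly upstream of genes transcribed by RNA polymerase II, and each insertion duplicates 5 bases of the target on both sides. The laboratory strain carries complete Tf2 elements, whereas Tf1 is known there from solo LTRs. Tf2 expression is held down by the CENP-B homologs, the HIRA histone chaperone and Set1.

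The sequences show how alike the repeats are at their ends. The repeat commonest among the Tf2 elements had 349 bases and occurred in 12 identical copies, among them SPLTRA.29 (chrI:1469899-1470247, plus strand). A second group of related repeats had a median length of 358 bases and no member beside a Tf2 gene, and SPLTRA.20 (chrI:1004892-1005249, plus strand) is a member. Their leading 150 bases are given here in the direction of the repeat, from the RefSeq assembly ASM294v3, with the opening TG in capitals. Both begin with the same letters and part further on within these 150 bases. Their last 150 bases, not printed here, are nearly the same.
SPLTRA.29: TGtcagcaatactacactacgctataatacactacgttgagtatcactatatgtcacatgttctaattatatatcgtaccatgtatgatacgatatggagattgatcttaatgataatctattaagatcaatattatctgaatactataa
SPLTRA.20: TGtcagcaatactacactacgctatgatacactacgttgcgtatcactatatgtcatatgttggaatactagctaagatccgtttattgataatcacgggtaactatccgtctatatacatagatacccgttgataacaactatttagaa

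The ends of whole elements show the target duplication. Each line below gives 5 bases of flanking DNA in capitals and 20 bases of the element, in the direction of the Tf2 gene, as the LTR rows bound it. Tf2-1, Tf2-9 and Tf2-13 are shown as elements with equal flanks, and Tf2-11 as an element without them. Coordinates are those of ASM294v3: Tf2-1 at chrI:1465332-1470247 (plus strand), Tf2-9 at chrII:1812349-1817262 (minus strand), Tf2-13 at chrIII:2319921-2324835 (minus strand) and Tf2-11 at chrII:4414197-4419057 (plus strand).
Tf2-1 upstream: ATTTCtgtcagcaatactacactac
Tf2-1 downstream: accaaactgcgtagcttacaATTTC
Tf2-9 upstream: TTAATtgtcagcaatactacactac
Tf2-9 downstream: accaaactgcgtagcttacaTTAAT
Tf2-13 upstream: TCAGGtgtcagcaatactacactac
Tf2-13 downstream: accaaactgcgtagcttacaTCAGG
Tf2-11 upstream: TGTCAgcaatactgcactacgttgc
Tf2-11 downstream: accaaactgtgtagcttacaCTTTC

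Chromosome III was the richest in LTRs for its length. It held 79 LTRs, 32.2 per Mb, against 90 on chromosome I (16.1 per Mb) and 69 on chromosome II (15.2 per Mb). Chromosome III thus carried 33.2% of the LTRs on 19.5% of the bases. LTRs covered 1.04% of chromosome III, 0.522% of chromosome I and 0.477% of chromosome II. The median gap from an LTR to the next was 15197 bases on chromosome III, 34949 bases on chromosome I and 33344.5 bases on chromosome II. Tf2 genes were distributed otherwise, with 8 on chromosome I, 3 on chromosome II and 2 on chromosome III. By strand, 112 LTRs lay on the plus and 126 on the minus strand, and 4 Tf2 genes on the plus and 9 on the minus strand.

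**Figure D1:**
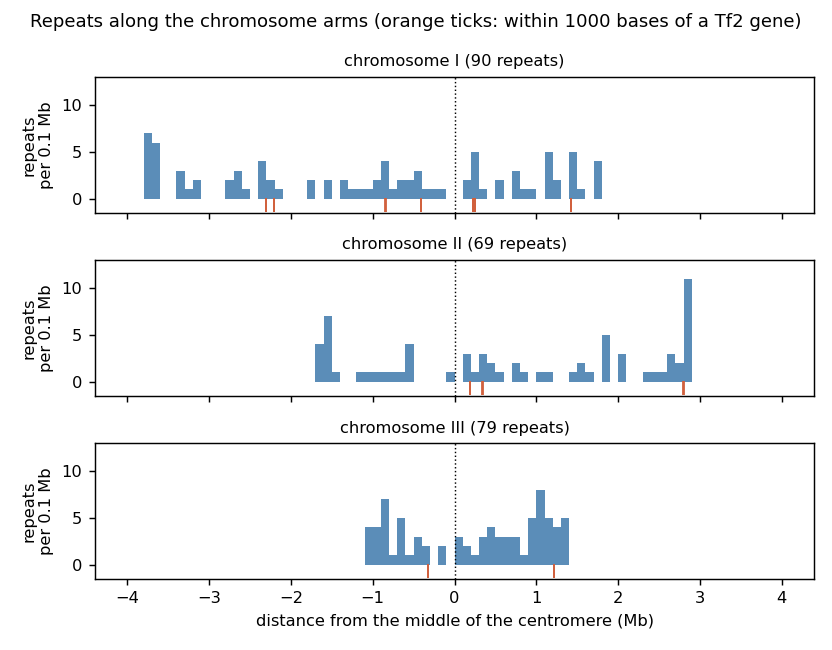
Number of LTRs per 0.1 Mb (vertical axis) against the distance from the middle of the centromere in Mb (horizontal axis) on the 3 chromosomes. Orange ticks mark LTRs within 1000 bases of a Tf2 gene; chromosome III holds 32.2 LTRs per Mb against 16.1 and 15.2 on chromosomes I and II, and no LTR lies in a centromere.

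LTR lengths were concentrated near the length of an intact repeat. The median was 346.5 bases, with quartiles of 323 and 350 bases. The class of 340 to 360 bases, called full-length here, held 140 LTRs (58.8%), and 10 were longer. Shorter LTRs numbered 44 from 300 to under 340 bases, 28 from 200 to under 300, 13 from 100 to under 200 and 3 below 100 bases. The commonest single lengths were 349 bases (40 LTRs), 358 bases (14) and 344 bases (12). Of those with 349 bases 21 lay beside a Tf2 gene, and of those with 358 bases none did. The shortest, SPLTRC.31 with 75 bases, lay in the transcribed 3′ end of nse1, a gene of the Smc5-Smc6 DNA repair complex, and the longest had 412 bases. Full-length LTRs made up 61.1% of those on chromosome I, 58.0% on chromosome II and 57.0% on chromosome III. LTRs of 300 to under 340 bases made up 25.3% on chromosome III, against 13.3% on chromosome I and 17.4% on chromosome II.

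**Figure D2:**
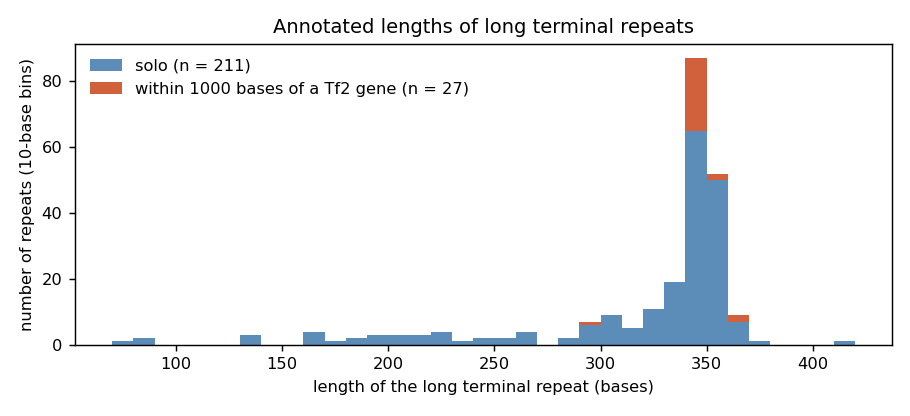
Number of LTRs (vertical axis) by annotated length in bins of 10 bases (horizontal axis). Blue stands for the 211 solo LTRs and orange for the 27 within 1000 bases of a Tf2 gene; 140 of the 238 lie between 340 and 360 bases.

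All 13 Tf2 genes had an LTR within 1000 bases on each side, in the same direction as the gene. With all 27 LTRs in this range set aside, 211 of 238 were solo. Tf2-7 and Tf2-8 stood in tandem on chromosome I and shared the LTR between them, so the 13 genes used 25 LTRs as their own. The other 2 in range were SPLTRA.61, which lay on the other strand beyond the end of Tf2-5, and SPLTRA.84, before the start of Tf2-8. They were 67.0% and 62.0% identical to the commonest Tf2 repeat. Of the 25 next to the genes, 24 were at least 95% identical to it, and the upstream LTR of Tf2-11 was the exception. Counted within 500 bases in place of 1000, both became solo, which gave 213.

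From outer end to outer end, 7 of the elements measured 4916 bases. The gap from the upstream LTR to the gene was 164 to 167 bases in all 13. The annotated coding parts came to 4002 bases in 11 genes. They came to 3999 in Tf2-10 and Tf2-13, genes of 4001 bases that the other annotation names as pseudogenes. Identity between pairs was measured from the first to the last coding base, with any bases between coding parts included. It ran from 99.5% to 100% over 78 pairs, and 13 pairs were identical. Tf2-1, Tf2-2, Tf2-4 and Tf2-9 carried the same coding sequence, and Tf2-11 differed most from it, by 16 edits.

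The LTRs of an element are copies of each other when it inserts, so later differences between them accumulate in place. In 7 of the 13 elements (Tf2-3, Tf2-4, Tf2-6, Tf2-9, Tf2-10, Tf2-12 and Tf2-13) the 2 LTRs, as annotated, were identical. Tf2-1 had 1 edit between its LTRs and Tf2-2 had 2. Tf2-5 and Tf2-7 had 6 edits and Tf2-8 had 7, as many as the bases by which the annotated lengths of each pair differ. Those lengths were 349 and 343 bases in Tf2-5, 356 and 362 in Tf2-7, and 349 and 356 in Tf2-8. Edits of this kind can follow from where the rows end and need not be changes within the repeat. In Tf2-8 the LTR of 349 bases was identical to the commonest Tf2 repeat. The row of its other LTR began 7 bases before the opening letters of that repeat. Tf2-11 stood apart with 71 edits, a count that includes the length difference between its upstream LTR (293 bases) and its downstream LTR (349).

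Target duplications were found around 10 of the 13 elements. The exceptions were Tf2-7, Tf2-8 and Tf2-11. Taken as a single unit of 9483 bases (chrI:5190745-5200227, minus strand), the Tf2-7 and Tf2-8 tandem had the same 5 bases at its outer ends, which made 11 of 12 units.
Tf2-8 upstream: CTTATtgtcagcaatactacactac
Tf2-7 downstream: accaaactgcgtagcttacaCTTAT

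Of the 13 Tf2 elements, 8 lay within 500 bases of a gene start, measured from the element's edge. Of single intergenic bases, 53.3% lie as near to a start. The nearer edge of a long element and a single base are unlike measures, for distance and for side, so these shares are not a like comparison. For 11 of 13 (84.6%) the nearest start of another protein-coding gene had the element on its upstream side, a share near the 85.9% of all intergenic bases that lie upstream of the nearest start. The median distance was 198 bases. Tf2-3 lay 51 bases from the start of cao1, a copper amine oxidase gene, and Tf2-1 lay 52 bases from brr2, which encodes a spliceosomal helicase. Tf2-6 was 126 bases from mak2, a histidine kinase gene, and Tf2-4 was 144 bases from dhp1, the gene of a nuclear exoribonuclease. Tf2-12 was 387 bases from rpb6, an RNA polymerase subunit gene. Farther away were Tf2-8 at 2428 bases from pyp2, Tf2-11 at 1955 bases and Tf2-7 at 1138 bases, the latter pair on the downstream side of the start. Element and gene pointed in opposite directions in 9 cases and in the same direction in 4.

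Solo LTRs, too, mostly lay on the upstream side of a gene. This held for 193 of 211, by the nearest start of a protein-coding gene other than Tf2 (91.5%, interval 86.9 to 94.5%). The distance from the LTR's edge had a median of 214 bases, with quartiles of 101.5 and 632 bases and a range from 30 to 2997 bases. Within 500 bases lay 152 solo LTRs (72.0%), within 250 bases 113 and within 100 bases 52. Measured from the midpoint, 63.0% of solo LTRs lay within 500 bases of a start, against 53.3% of intergenic bases. No solo LTR covered a gene start, and none of the 211 overlapped a coding sequence. For this count of 0 an upper limit of 3 in 211 was taken, a share of 1.42%, which is not a Wilson limit. Of the 193 upstream of a start, 103 pointed in the direction of that gene and 90 against it.

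Most solo LTRs were upstream on each chromosome. Upstream LTRs numbered 65 of 73 on chromosome I, 61 of 63 on chromosome II and 67 of 75 on chromosome III. The median distances were 170, 259 and 208 bases. Full-length solo LTRs had a median distance of 139.5 bases (n = 116), and those of 200 to under 300 bases had 602 bases (n = 27). The 8 solo LTRs over 360 bases all lay within 399 bases of a start. The 18 LTRs on the other side of a start comprised 7 in tandem gaps, 7 in convergent gaps, 2 inside genes and 2 beyond the last gene of a chromosome.

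As a reference, the midpoint of each LTR was set beside every single base of the chromosomes outside repeats and Tf2 genes. Midpoints lay upstream of the nearest start in 91.5% of cases, against 34.7% of all bases and 85.9% of intergenic bases. The median distance was 376 bases for midpoints and 450 bases for intergenic bases. By distance class, 48.8% of midpoints lay 251 to 500 bases upstream, against 19.7% of intergenic bases. From 1 to 250 bases upstream the order was turned, with 13.7% of midpoints and 33.2% of intergenic bases. A full-length LTR centred close to a start would cover that start. Its midpoint also lies farther from the start than its nearer edge, so the repeat's own length enters both classes, unlike for single bases. By edge, 113 of the 211 solo LTRs lay within 250 bases of a start. How much of the difference in these classes comes from the measure was not tested. The fullest 100-base bin, 200 to 300 bases upstream, held 72 midpoints (34.1%) and 10.3% of intergenic bases.

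**Figure D3:**
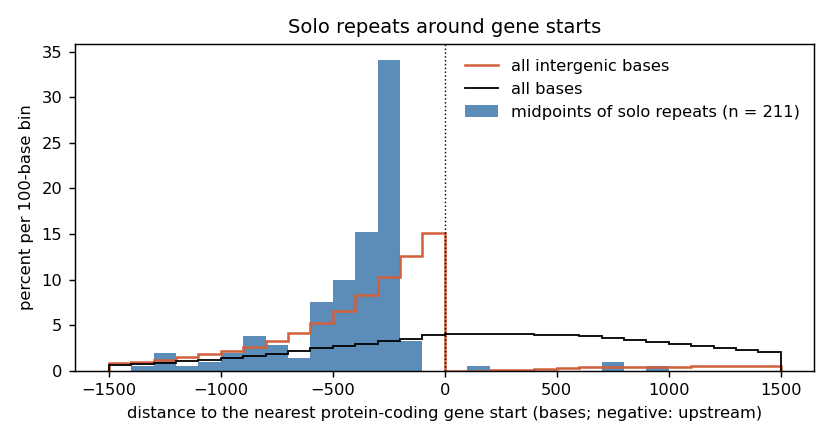
Percent per 100-base bin (vertical axis) against the distance in bases to the nearest protein-coding gene start (horizontal axis; upstream is negative). Blue bars are midpoints of the 211 solo LTRs, the orange line is every intergenic base and the black line every base outside repeats; 34.1% of midpoints lie 200 to 300 bases upstream, and 30 midpoints lie beyond 1500 bases and are not drawn.

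The full-length solo LTRs nearest to a gene start lay beside genes of many kinds. SPLTRA.47 ended 33 bases from SPAPB2C8.01 and SPLTRB.39 ended 36 bases from lam2. SPLTRA.59 lay 47 bases from sec67. SPLTRA.50 lay 67 bases from end4, an endocytosis gene, SPLTRA.25 lay 70 bases from cct5, which encodes a chaperonin subunit, and SPLTRB.55 lay 71 bases from rrp42, an exosome subunit gene. All 10 nearest were on the upstream side, 5 in the direction of the gene and 5 against it. SPLTRA.47 and SPLTRA.46 overlap SPTF.4, and SPLTRC.11 overlaps SPTF.8, both annotated retrotransposon rows without a Tf2 gene. These 3 LTRs count among the 211 solo LTRs only in that no Tf2 gene lies within 1000 bases.

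The 10 nearest also included clr4 and raf2, singled out here because the series studies H3K9 methylation. SPLTRB.13 (347 bases) ended 67 bases upstream of clr4, the H3K9 methyltransferase gene that is deleted in 2 libraries of the series. SPLTRC.21 (348 bases) ended 47 bases upstream of raf2, a gene of the Clr4 complex. Between raf2 and its divergent neighbour kcs1, an inositol phosphate kinase gene, a further full-length LTR, SPLTRC.20, ended 67 bases from the kcs1 start. The ends of SPLTRC.20 (chrIII:499951-500308, plus strand) and SPLTRB.13 (chrII:458478-458824, plus strand) are shown as examples of an LTR with and without equal flanks, written as above in ASM294v3 coordinates.
SPLTRC.20 upstream: ATTATtgtcagcaatactacactac
SPLTRC.20 downstream: accaaactgcgtagcttacaATTAT
SPLTRB.13 upstream: TACGGtgttaacaacacactgctct
SPLTRB.13 downstream: taccaaactgcgtagctgacTTTGT

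Divergent gaps, in which the genes on both sides start towards the gap, and tandem gaps held nearly all solo LTRs. There were 99 in divergent gaps (46.9%, 40.3 to 53.6%), 95 in tandem gaps (45.0%, 38.5 to 51.8%) and 8 in convergent gaps (3.79%, 1.93 to 7.30%). Inside genes lay 7 midpoints (3.32%) although genes made up 77.0% of the bases outside repeats. Among intergenic bases the shares were 43.3% divergent, 45.6% tandem and 9.26% convergent, beside 48.5%, 46.6% and 3.92% of the intergenic LTRs. Per Mb of each kind of gap this came to 79.8 solo LTRs in divergent, 72.7 in tandem and 30.2 in convergent gaps. Counted by gap, 88 of 1255 divergent gaps (7.01%), 81 of 2134 tandem gaps (3.80%) and 7 of 537 convergent gaps (1.30%) held a solo LTR.

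**Figure D4:**
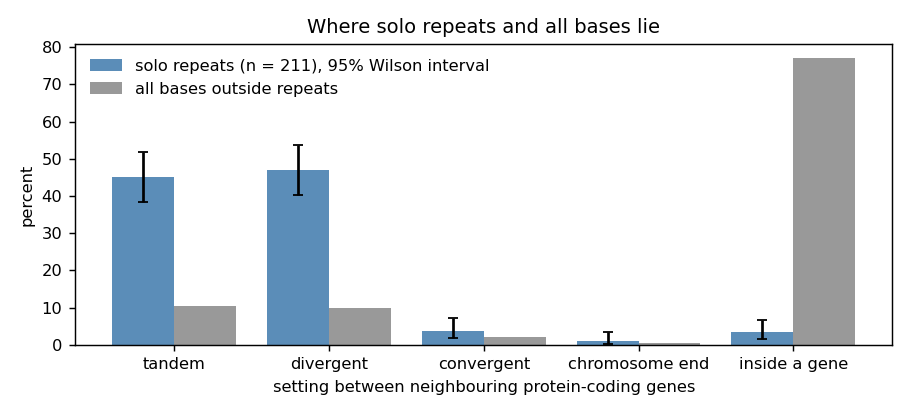
Percent (vertical axis) of the 211 solo LTRs (blue, by midpoint, with 95% Wilson intervals) and of all bases outside repeats (grey) in each setting between neighbouring protein-coding genes (horizontal axis). Genes hold 77.0% of the bases and 3.32% of the LTRs.

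Gaps with a solo LTR were longer than the others, also with their repeats taken off. A longer gap offers more bases for an LTR to lie in. How much of the difference comes from this was not tested. The median length without repeats was 847 bases for tandem gaps with an LTR, against 328 bases for tandem gaps with none. In divergent gaps the medians were 986.5 and 750 bases, and in convergent gaps 2280 (7 gaps) and 154 bases. Within tandem gaps, 54 of 95 LTRs lay nearer to the gene start and 41 nearer to the gene end. The convergent gaps included those between atp25 and apm4 (231 bases) and between SPCC576.02 and tpx1, a peroxiredoxin gene (914 bases). The first of these gaps is shorter than its LTR, SPLTRA.15 with 374 bases, which reached into the untranslated ends of the genes.

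LTRs inside genes lay in untranslated exons. The 7 midpoints inside genes were in ftm2, mug115, dbl4, mnr2, yea4, SPBC83.12 and nse1, all in the 3′ untranslated part except SPLTRA.58, which lay in the 5′ part of mnr2. Counting any overlap, 15 of 211 solo LTRs touched a protein-coding gene, each of them in an untranslated exon. Long non-coding RNA genes held 22.7% of solo LTR midpoints, against 55.0% of intergenic bases. By any overlap, 61 solo LTRs met such a gene on the opposite strand and 20 met a gene on the same strand.

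tRNA genes, which several retrotransposons of other yeasts use as targets, were near these LTRs about as often as near any base. The median distance from a solo LTR to a tRNA gene was 47637 bases, against 36737 bases for every base outside repeats. Within 1000 bases lay 7 solo LTRs (3.32%, 1.62 to 6.69%), beside 2.22% of all bases. The LTR distance runs from the nearer edge, whereas the reference is single bases, most of them inside genes. The share of intergenic bases alone was not read. The closest was SPLTRA.16, which began 3 bases beyond the end of SPATRNAVAL.01, a valine tRNA gene, in the same direction. The next were SPLTRA.90 at 289 bases, SPLTRC.33 at 327 bases and SPLTRB.27 at 408 bases. Of 171 tRNA genes, 27 lay in centromeres, and all 7 near an LTR lay on the arms. The tRNA gene closest to a Tf2 element was 8524 bases away.

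On chromosome III many LTRs lay beside wtf genes, a family that includes spore-killing meiotic drivers and takes its name from its association with Tf repeats. The family was chosen after the values were seen. Of 25 wtf genes, coding or not, 23 lay on chromosome III, and 21 had an LTR within 1000 bases (84%), against 315 of 5083 other protein-coding genes (6.20%) and 92 of the 896 on chromosome III (10.3%). The median distance from a wtf gene to an LTR was 248 bases. The LTR overlapped wtf20 and lay 19 bases from wtf23, 38 bases from wtf14 and 48 bases from wtf11. LTRs lay on both sides of 6 wtf genes. The 4 wtf genes with no LTR so near were wtf5, wtf7, wtf8 and wtf17, at 2622 to 45441 bases. Without the 26 LTRs near wtf genes, chromosome III kept 21.6 LTRs per Mb.

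LTRs also lay close to each other. With gaps under 5000 bases joined, the 238 LTRs formed 173 runs, of which 129 were single LTRs and 44 held 109 LTRs between them. The limit joins both LTRs of a Tf2 element by construction: 12 of the 44 runs held such LTRs, and the other 32 held 81 solo LTRs. Positions here are those of the annotation. The largest, with 6 LTRs in 12023 bases, lay 21034 bases from the left end of chromosome I and spanned ftm1 and ftm2. Runs of 4 included the Tf2-7 and Tf2-8 tandem. Others of 4 lay 996 bases from the left end of chromosome II (997 to 5191), at 93517 to 102137 on the same chromosome with 4 LTRs of 344 bases, and at 3495842 to 3497149 within 1308 bases. The 4 LTRs of 344 bases, SPLTRB.8 to SPLTRB.11, were identical and each ended 653 bases upstream of a gene, from SPBPB10D8.04c to SPBPB10D8.07c. Neighbouring LTRs overlapped in 7 pairs, by 1 to 153 bases, and 5 of the pairs lay on opposite strands.

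The outer 100 kb of chromosomes I and II were rich in LTRs. They held 33 of the 159 LTRs of these chromosomes (20.8%) on 3.95% of the bases, which is 82.5 per Mb against 12.96 per Mb elsewhere on both. By end, 12 LTRs lay at the left and 4 at the right end of chromosome I, and 10 at the left and 7 at the right end of chromosome II. All 33 were solo, and no Tf2 gene lay in these stretches. The median distance of the 33 to a gene start was 604 bases. Of them 25 were upstream of the nearest start, at a median of 303 bases, and 22 of the 25 pointed in the direction of the gene. LTRs of a run share their surroundings, and alike placements recur at different ends. SPLTRA.3 and SPLTRB.2, identical with 296 bases, both lay 602 bases upstream of a gene. SPLTRA.1, SPLTRA.5, SPLTRA.89, SPLTRB.4, SPLTRB.68 and SPLTRB.69 lay 257 to 259 bases upstream, each in the direction of the gene. The counts by side and direction are therefore not counts of independent placements.

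Centromeres and the surroundings of the endogenous reporter held no annotated LTR. The centromeres, 144165 bases or 1.15% of the genome, contained none of the 238 LTRs, and the nearest LTR stood 39246 bases from the centromere of chromosome III. The closest LTRs to the endogenous reporter (2135068 to 2136948 on chromosome II) were SPLTRB.33 (2170002 to 2170349), 33053 bases to the right, and SPLTRB.32 (2091414 to 2091720), 43347 bases to the left. In the ectopic-site annotation LTRs stood nearer to the reporter, at 594, 3764 and 6461 bases, and the next stood 65774 bases away.

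For genes known to regulate Tf elements, the distance to the nearest LTR was read as well. All 10 listed genes were found: the CENP-B homologs abp1, cbh1 and cbh2, the HIRA genes hip1, hip3 and slm9, the DNA-binding factor gene sap1, set1, the sterol regulator gene sre1 and the chromatin remodeller gene fft3. None had an LTR within 1000 bases, where 6.20% of protein-coding genes other than wtf genes had one, and 0 of 10 is not far from that share. The distances ran from 8612 bases for sap1 to 111080 bases for sre1, and set1, deleted in several strains of the series, stood at 30289 bases. Their median was 61689.5 bases, against 25206.5 bases over all 5100 protein-coding genes.

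Few solo LTRs were close copies of the Tf2 repeat. Of 211 solo LTRs, 22 were at least 95% identical over their whole length to the commonest Tf2 repeat, and 3 were identical to it: SPLTRA.77 beside coa3, SPLTRB.44 beside zfs1 and SPLTRC.46 beside lto1. A further 7 lay between 90% and 95%, 35 between 80% and 90% and 147 below 80%. Short LTRs score low by length alone, since the comparison ran end to end. Among the 116 full-length solo LTRs the median identity was 79.9%, with 55.1% at the lowest. The 22 most alike lay at a median of 125 bases from a gene start, 20 of them within 500 bases, against a median of 238 bases for the other 189. However, 21 of the 22 were full-length, and within the full-length class the medians were 125 bases for these 21 and 150 bases for the other 95.

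**Figure D5:**
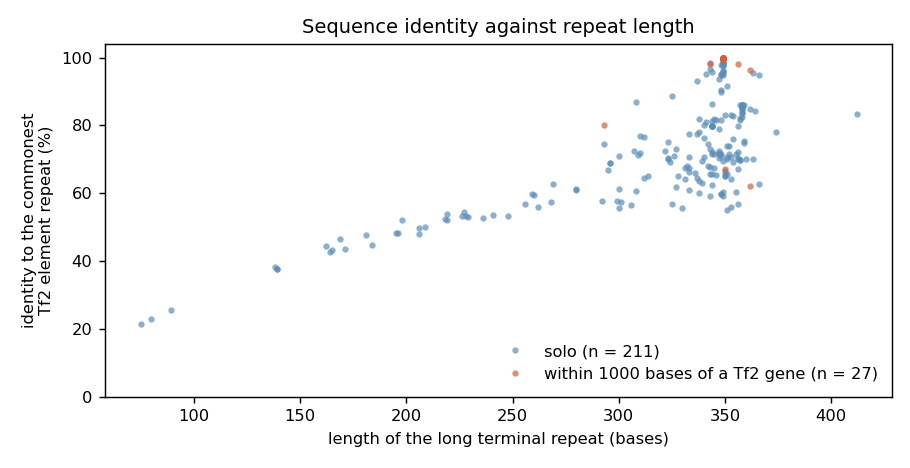
Identity in percent to the commonest Tf2 element repeat over the whole length (vertical axis) against LTR length in bases (horizontal axis). Blue points are the 211 solo LTRs and orange points the 27 within 1000 bases of a Tf2 gene; 22 solo LTRs reach 95% or more.

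Joining LTRs at 95% identity or more to any other member gave 8 groups of at least 2 and left 154 LTRs alone. The largest group held 50 LTRs, 24 of them in Tf2 elements. The next held 19, all solo and 354 to 364 bases long, with a median of 85.5% identity to the Tf2 repeat and 131 bases to a gene start. The 4 identical LTRs of 344 bases formed the third. The 238 LTRs had 214 distinct sequences, and 30 LTRs were identical to at least 1 other.

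Intact ends and target duplications, both read at the annotated row ends, were found in a minority of the solo LTRs. A row can begin inside its repeat, and its LTR then counts as lacking them. The row of SPLTRA.47, 98.3% identical to the Tf2 repeat, starts after the letters GTCAG from the opening of that repeat. How many rows are placed in this way was not counted. Of 211, 72 began with TG and ended with CA (34.1%), against 0.377% of all windows of 349 bases in the genome. An exact duplication of the 5 flanking bases was found for 41 (19.4%, 14.7 to 25.3%), against 0.197% of all such windows. Among LTRs with both ends intact 37 of 72 had it, and among the others 4 of 139. By length, 38 of 116 full-length and 3 of 95 other solo LTRs had it. In the 358-base group 14 of 19 had it. None of the 27 LTRs beside Tf2 genes had it around the single LTR. The duplicated bases were 77.1% A or T, against 63.9% in the genome. The genome value includes genes, whereas solo LTRs lay mostly between genes, where the composition was not read. The 41 duplications took 34 different forms, a sequence and its reverse complement counted as 1. GC content of the solo LTRs had a median of 32.6%, against 36.1% in the genome.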

How the data were processed

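Start and end coordinates were read from 2 genome annotations deposited by the authors, in bases counted from 1 and in no other unit. Per the file headers and source fields, they come from PomBase and from Geneious. They hold no score, and read depth is unknown. Trimmomatic and BWA are named in the submitters' processing notes. The alignment build is not given in the sources used here.

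Protein-coding genes had an mRNA child, and gene starts include untranslated exons. Distances count the bases between features. Settings were read at midpoints, and chromosome lengths were those of ASM294v3 plus the shift of the last repeat. All 238 repeats matched the repeat rows of RefSeq's ASM294v3 annotation in order, length and strand, with shifts of 0, 6539 (37 on II) or -1807 bases (72 on III). Sequences were read at the RefSeq rows. Identity came from edlib 1.3.9.post1, end to end. Scripts ran in Python 3.11.15 with numpy 2.4.6; matplotlib 3.10.9 drew the figures. Nearest starts were checked in 300 of 300 random windows, and planted direct repeats were found in 200 of 200 simulated sequences.

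The members and lists were chosen with earlier results of these data known. Genes named were all Tf2 genes, the 10 full-length solo repeats nearest to a start, tRNA neighbours, the largest runs and listed regulators; others were chosen after their values were seen.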

Additional observations from a re-analysis of the deposited data

How the results depend on the processing

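Of 57 alternative values for 20 results, 47 stayed within 1.5 times a count or within the 95% interval of a share or median (154 to 267 bases for the median distance to a gene start), 10 moved and 0 reversed. Counts, shares and distances carry no direction here, so no value could be labelled as reversed. Some of the 47 could not move. No LTR lies in a centromere, so leaving centromeres out changed no count per chromosome. On I and III the last annotated base is the chromosome length, so the density there stayed the same. The median distance became 365 bases from the coding start, 376 bases from the midpoint of the repeat and 139.5 bases in the full-length class. In that class 94.8% lay upstream. The share within 500 bases was 63.0% from the coding start, 63.0% from the midpoint and 78.4% with 1 repeat kept per run, an alternative chosen after seeing the data. The share inside a gene was 0% when gaps were drawn between coding sequences. Within 500 bases of a tRNA gene lay 4 repeats, and within 50 kb of the ends of I and II lay 16. These follow from the construction of each alternative, except the full-length class and the single repeat per run, where the cause was not tested. No paired analysis was possible because the result comes from no test and no value per library was analysed.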

Other observations

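The 2 annotations listed nearly the same repeats. In order of position, 231 of the 238 LTRs had a row of the same length and strand among the 237 of the ectopic-site annotation. SPLTRA.73 (4897509 to 4897866 on chromosome I, 358 bases) had no counterpart there. On chromosome II, 5 LTRs of equal length were on the other strand (SPLTRB.15, SPLTRB.24, SPLTRB.36, SPLTRB.54 and SPLTRB.56), and SPLTRB.32 had 307 bases in one file and 234 in the other. Strand-based counts for these rest on the endogenous-site annotation.

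Rows for whole retrotransposons were less regular than the LTR rows. The endogenous-site annotation listed 14 of them, of which 11 contained a whole Tf2 gene and 2, SPTF.4 (2350 bases) and SPTF.8 (1731 bases), overlapped none. Tf2-2 and Tf2-7 were contained in none: SPTF.2 (1563817 to 1567862) ended inside Tf2-2, and a row at 5194995 to 5200227 overlapped Tf2-7 and contained Tf2-8. The latter row was on the plus strand, whereas both genes were on the minus strand. In 6 rows the coordinates reached 5 bases beyond the LTRs on each side, the length of the target duplication, and in 2 they ended at the LTRs.

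The upstream LTR of Tf2-11 was annotated to begin 5 bases inside the repeat, because the 5 bases before it were the opening letters of the Tf2 repeat. The 5 bases before those still differed from the downstream flank.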
